A study of Mus musculus with 3 samples.

Results

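The 100 clonotypes with the most reads were taken from each of 3 T cell receptor beta (TRB) libraries, one each from the CD4, CD8 and double negative (DN) T cells of a single MRL.lpr mouse. A clonotype is a TRB rearrangement defined by its CDR3 nucleotide sequence with its V and J genes. Members were selected on read counts alone: clonotypes with an in-frame CDR3 free of stop codons were ranked by reads, ties were kept in file order, and ranks 1 to 100 were used. This gave 300 list places out of 156729 in-frame TRB clonotypes, namely 100 of 41301 in CD4, 100 of 77240 in CD8 and 100 of 38188 in DN T cells. Because some clonotypes were on more than 1 list, the 300 places held 255 distinct clonotypes.

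The mouse was 16 weeks old and carried the lpr mutation of Fas on the lupus-prone MRL background, so all 3 subsets shared the genotype, animal, organ and age. Each subset was sorted from spleen, RNA of 1000000 cells was made into 1 library, and no treatment and no wild-type control belongs to the series. With 1 library per subset there was no replicate, so no test between conditions was possible and no p-value is given. All intervals below are 95% intervals for counting error only (Wilson for a share, Newcombe for a difference of shares), and reads amplified by PCR without molecular identifiers are not independent molecules. The labelled subsets could not be checked against surface markers, because the libraries hold only T cell receptor transcripts, and a larger clone cannot be told apart from more receptor mRNA per cell.

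The beta chain is assembled in the thymus from a V, a D and a J gene segment, and bases are trimmed and added where they meet. The CDR3 loop spans these joins, begins at a conserved cysteine encoded by the V gene, ends at a conserved phenylalanine of the J gene, and makes much of the contact with the peptide held by an MHC molecule. A clone that divides passes 1 rearrangement to all its daughters, so a rearrangement with many reads is a candidate for an expanded clone. Loss of functional Fas, a receptor that triggers cell death, is known to let T cells that lack both CD4 and CD8 accumulate in lymphoid organs, and how these DN T cells relate to CD8 T cells was 1 of the questions of the study.

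The CDR3 sequences of the 3 largest members of each library show what was ranked. They are printed 5′ to 3′ from the conserved cysteine codon to the phenylalanine codon, with the junction in capitals, that is, the bases lying between the stretch shared with most clonotypes of the same V gene and that shared with most of the same J gene.
CD4 rank 1, TRBV13-2 and TRBJ2-5: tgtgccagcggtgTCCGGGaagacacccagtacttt
CD4 rank 2, TRBV13-2 and TRBJ2-1: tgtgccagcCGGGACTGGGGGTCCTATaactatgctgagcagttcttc
CD4 rank 3, TRBV13-3 and TRBJ2-3: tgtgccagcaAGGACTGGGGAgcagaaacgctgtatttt
CD8 rank 1, TRBV13-1 and TRBJ1-3: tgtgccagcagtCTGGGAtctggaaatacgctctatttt
CD8 rank 2, TRBV17 and TRBJ2-3: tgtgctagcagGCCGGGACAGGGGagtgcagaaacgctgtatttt
CD8 rank 3, TRBV1 and TRBJ2-4: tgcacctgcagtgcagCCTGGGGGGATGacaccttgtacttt
DN rank 1 and CD8 rank 8, TRBV13-1 and TRBJ2-4: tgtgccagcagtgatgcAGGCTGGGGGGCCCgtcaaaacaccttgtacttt
DN rank 2 and CD8 rank 9, TRBV4 and TRBJ2-3: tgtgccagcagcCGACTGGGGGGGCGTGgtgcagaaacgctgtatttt
DN rank 3 and CD8 rank 12, TRBV1 and TRBJ2-7: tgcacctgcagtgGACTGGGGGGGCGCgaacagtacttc

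Among these 9, the CD4 and CD8 clonotypes were on no other list and had far fewer reads in the other libraries, whereas the 3 largest DN clonotypes were all on the CD8 list. The largest CD4 clonotype still stood at rank 280 in CD8. The largest CD4 clonotype had 1484 CD4, 21 CD8 and 3 DN reads, and made up 1.17% (1.11 to 1.23) of CD4 in-frame TRB reads. CD4 rank 2 had 1275, 5 and 7 reads in the same order, and CD4 rank 3 had 575, 8 and 3. Their V genes belong to the TRBV13 (Vβ8) family, which has 3 members in the mouse.

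The largest CD8 clonotype had 3260 reads in CD8, 54 in CD4 and 75 in DN T cells, and its 2.24% (2.17 to 2.32) of CD8 reads was the highest share of any member in any library. CD8 rank 2 had 637 reads in CD8, 3 in CD4 and 2 in DN T cells. CD8 rank 3 had 593 in CD8, 12 in CD4 and 5 in DN T cells. None of these 3 was a member in another library.

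The DN list began less steeply. DN rank 1 had 1374 reads in DN, 225 in CD8 and 62 in CD4 T cells, and its share of DN reads was 0.742% (0.704 to 0.782). DN rank 2 had 1339, 212 and 68 reads in the same order, and DN rank 3 had 1299, 179 and 51. Ranks 1 to 6 of the DN list lay between 1142 and 1374 reads, so the head of this list was flat.

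Because reads chose the members, the sizes are given as a description. The 100 members held 14.6% (14.4 to 14.8) of the in-frame TRB reads of CD4, 9.16% (9.01 to 9.31) of CD8 and 19.0% (18.8 to 19.2) of DN T cells, out of 126738, 145225 and 185135 reads. Within the lists, rank 1 alone held 24.5% of member reads in CD8, 8.02% in CD4 and 3.91% in DN T cells. Rank 1 had 77.6 times the reads of rank 100 in CD8, 17.5 times in CD4 and 8.23 times in DN T cells. The CD8 list was thus headed by 1 clonotype and fell away fastest, as the plot of read share by rank shows.

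The end of each list was not a natural break. The last clonotype inside and the first outside both had 85 reads in CD4 and both had 42 in CD8, while in DN T cells they had 167 and 166. Of 5 CD4 clonotypes with 85 reads, 2 were inside the list, and of 5 CD8 clonotypes with 42 reads, 4 were inside, by file order alone. Rank 1000 still had 15 CD4, 9 CD8 and 28 DN reads, whereas 61.1%, 68.3% and 55.1% of the clonotypes ranked below 100 had a single read.

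**Figure D1:**
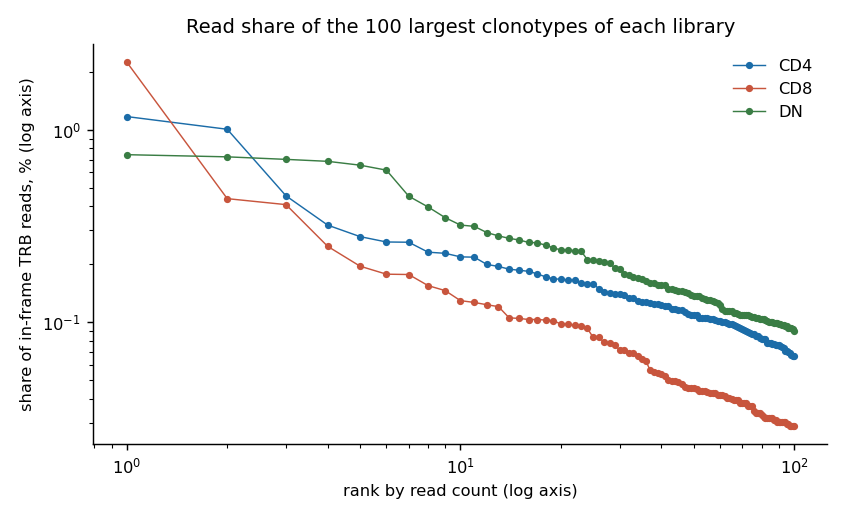
Share of in-frame TRB reads (%, log axis) of each of the 100 largest clonotypes against its rank by read count (log axis), 1 point per clonotype and 1 line per library. CD8 starts highest, at 2.24%, and ends lowest, while DN stays above the others from rank 3 to rank 100.

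The lists of CD8 and DN T cells shared far more members than any other pair. Of the 255 distinct members, 96 were on the CD4 list only, 59 on the CD8 list only, 57 on the DN list only, 39 on the CD8 and DN lists, 2 on the CD4 and DN lists and 2 on all 3. The overlap of CD8 with DN T cells was therefore 41 clonotypes, 41% of each list, against 4 for CD4 with DN and 2 for CD4 with CD8. A shared clonotype matched in CDR3 bases, V and J in both libraries. Whether its reads in both libraries came from cells of both subsets was not tested. All 41 were also found in CD4, at a median of 22.4% of their CD8 share.

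The read shares of the shared clonotypes are given as a description only, because these shares chose them: a place on the DN list took at least 0.0902% of reads and one on the CD8 list 0.0289%, which by itself favours a larger DN share. All 41 made up a larger share of reads in DN than in CD8 T cells. Their DN share was 129% to 744% of their CD8 share, with a median of 495%. On the CD8 list they had 42 to 225 reads and stood at ranks 8 to 99, and on the DN list they had 171 to 1374 reads, at ranks 1 to 99. CD8 ranks 1 to 7 were outside this group, while CD8 ranks 8, 9 and 10 were DN ranks 1, 2 and 6.

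The 59 other CD8 members were by their choice below the DN list, so their low DN shares are no finding. Of these, 36 had a read in DN T cells, and their median DN share was 1.10% of that in CD8. The 59 other DN members were all found in CD8 T cells, with a median of 16.96% of their DN share and a lowest value of 8.33%, while the highest, 26.2%, was limited by their absence from the CD8 list. No DN member ranked lower than 569 in CD8. CD4 members had a median share of 1.25% in CD8 and of 0.48% in DN T cells relative to that in CD4. For DN members, the median share relative to that in DN was 18.5% in CD8 (quartiles 14.4% and 21.3%). In CD4 it was 4.33% (quartiles 2.98% and 6.41%).

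**Figure D2:**
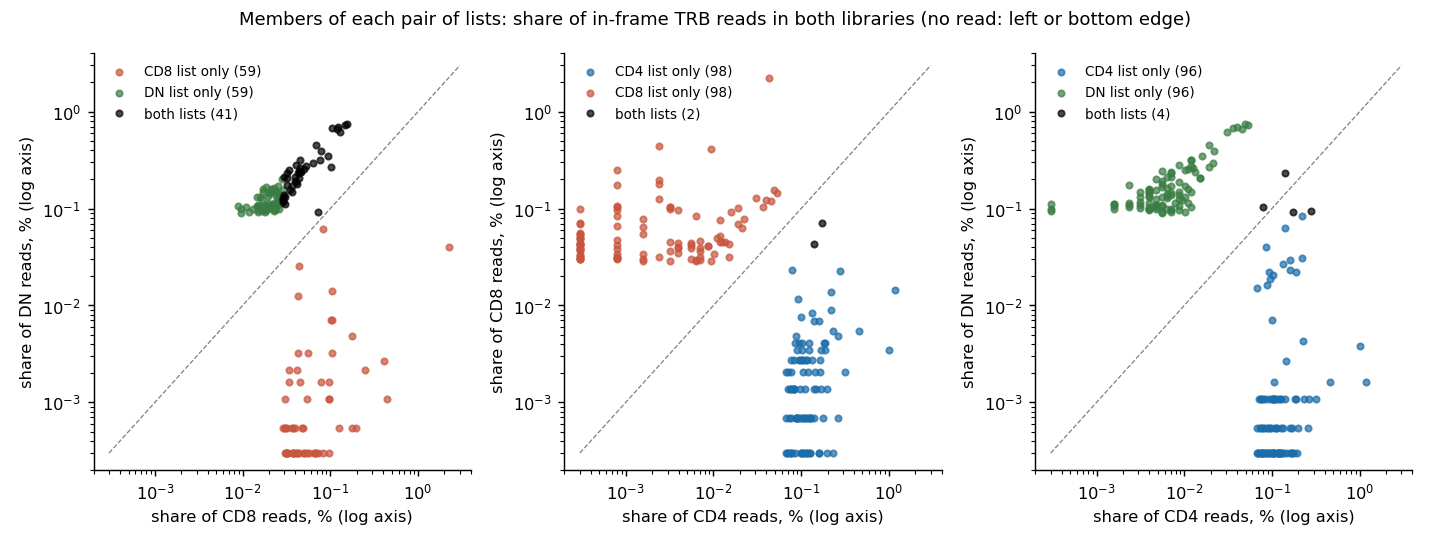
Share of in-frame TRB reads (%, log axes) of every member in both libraries of a pair, 1 point per clonotype, coloured by the list or lists that hold it; the dashed line marks equal shares and points without a read are drawn at the edge. In the CD8 and DN panel all 41 clonotypes on both lists lie above the line, and the DN members form 1 band, while the members on the CD8 list only, which by choice lie under the DN list, scatter below it.

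Finding a clonotype in another library depended strongly on its size. Of the CD4 members, 80 of 100 were found in CD8 (9.2% of all in-frame CD4 clonotypes) and 63 in DN T cells (8.68% of all). Of the CD8 members, 76 were found in CD4 (4.92% of all) and 77 in DN T cells (9.69% of all), and of the DN members, 97 were found in CD4 (9.39% of all) and 100 in CD8 (19.6% of all). The next 900 clonotypes, down to rank 1000, stood between: 31.7% of those of CD4 were found in CD8, 59.3% of those of CD8 in DN, and 97.6% of those of DN in CD8 T cells. Every one of the 6 directions had a higher share among members, but for DN members in CD8 T cells the next 900 lay just 2.44 points lower.

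Clonotypes that stood on all 3 lists, and 1 that paired CD4 with DN near the top, are printed with the junction in capitals, because they are the exceptions to the separation of the CD4 list from the others.
CD4 rank 30, CD8 rank 57 and DN rank 23, TRBV13-2 and TRBJ2-5: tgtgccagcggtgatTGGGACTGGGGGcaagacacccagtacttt
CD4 rank 18, CD8 rank 31 and DN rank 99, TRBV21 and TRBJ2-1: tatgctgagcagttcttc
CD4 rank 5 and DN rank 95, TRBV4 and TRBJ2-3: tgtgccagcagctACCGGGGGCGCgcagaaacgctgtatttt
The TRBV13-2 clonotype had 177 CD4, 62 CD8 and 433 DN reads. The TRBV21 clonotype had 218, 104 and 171 reads in the same order. It spans only 6 residues and has no cysteine codon, and 17 of its 18 bases match the stretch shared by TRBJ2-1 clonotypes, so it lacks the usual start of a CDR3 although it is in frame. The TRBV4 clonotype had 353 CD4, 33 CD8 and 176 DN reads, and a second CD4 and DN pair, with TRBV13-1 and TRBJ2-1, had 99, 34 and 193.

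For most V genes, the interval for the difference between members and lower ranks included 0. The members used 16 of 25 V genes in CD4, 16 of 24 in CD8 and 18 of 26 in DN T cells, and all 12 J genes present were used in each. The 100 members formed 64 V and J pairs in CD4, 63 in CD8 and 60 in the DN library. Of 114 intervals for single V and J genes, 9 lay above 0 and none below it; a 95% interval leaves out the true difference in about 5 of 100 comparisons. Of these 9, 5 came from genes with 1 member each (TRBV21 in all 3 libraries, TRBV15 in CD8 and DN T cells).

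The TRBV13 family was the largest in every list. It made up 40 members in CD4 against 31.2% of lower ranks (difference 8.79 points, -0.28 to 18.6), 44 in CD8 against 34.4% (9.55 points, 0.22 to 19.3) and 46 in DN T cells against 42.2% (3.83 points, -5.62 to 13.6). In CD8 the difference turned to -2.33 points when the members were set against the next 900, of which 46.3% used the family. The share in CD8 was thus no higher among members than among the clonotypes just below them.

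Within the family the 3 genes differed between subsets. TRBV13-1 (Vβ8.3) had 21 members in CD4 against 12.8% of lower ranks (1.4 to 17.2 points higher), 12 in CD8 against 9.2% and 19 in DN T cells against 19.2%. Of the next 900 clonotypes 14.6% used it in CD4, 19.2% in CD8 and 23.1% in the DN library, so the CD8 members lay below the clonotypes that followed them. TRBV13-3 (Vβ8.1) had 17 members in DN T cells against 10.1% (0.7 to 15.4 points higher), 21 in CD8 against 14.9% and 4 in CD4 against 5.49%. TRBV13-2 (Vβ8.2) had 15, 11 and 10 members in the CD4, CD8 and DN libraries against 12.9%, 10.4% and 12.9%. CD4 and DN T cells thus had an interval above 0 for different genes of the family, and for TRBV13-2 all 3 intervals included 0.

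Between lists, the clearest contrast was TRBV13-3, with 4 CD4 members against 21 CD8 members (-17 points, -26.3 to -8.01) and 17 DN members (-13 points, -21.9 to -4.55). TRBV20 (Vβ15) ran the other way, with 10 CD4 members against 2 in CD8 (8 points, 1.29 to 15.6) and 1 in DN T cells (9 points, 2.69 to 16.5). TRBV4 had 8 CD4 members against 1 in CD8 and 2 in DN T cells. All 3 genes had the same order in lower ranks: TRBV13-3 made up 5.49%, 14.9% and 10.1% of lower ranks in the CD4, CD8 and DN libraries, TRBV20 9.8%, 2.97% and 1.8%, and TRBV4 8.22%, 3.67% and 3.72%. Of 37 genes and features, 3 had an interval that left out 0 between the CD4 and CD8 lists and 2 between the CD4 and DN lists. Between the CD8 and DN lists without their shared members 1 did, TRBJ2-2, with 1 of 59 against 7 of 59 (-10.2 points, -20.9 to -0.72).

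Other named V genes had no interval that left out 0. TRBV1 (Vβ2) had 10, 10 and 12 members in the CD4, CD8 and DN libraries against 6.67%, 11.5% and 11.9%. TRBV31 (Vβ14), which lies downstream of the J genes and is joined by inversion, had 6, 10 and 11 against 8.15%, 11.1% and 6.99%. TRBV5 (Vβ1) had 7, 8 and 8 against 11.03%, 5.26% and 6.95%, TRBV17 (Vβ9) had 4, 7 and 5 against 3.29%, 6.51% and 9.44%, and TRBV14 (Vβ13) had 1, 3 and 2 against 1.28%, 6.55% and 2.63%. Differences from lower ranks ran from -4.03 (TRBV5) to 3.33 points (TRBV1) in CD4 and from -3.55 (TRBV14) to 2.74 points (TRBV5) in CD8. In DN T cells they ran from -4.44 (TRBV17) to 4.01 points (TRBV31). All 15 of these intervals included 0, which does not show that the shares were equal. TRBV17 nevertheless gave CD8 ranks 2, 5 and 7.

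J gene use leaned to the TRBJ2 cluster, the downstream set of J genes, which can be joined with either D gene. TRBJ2 genes were used by 77 members in CD4 against 63.4% of lower ranks (13.6 points, 4.42 to 20.8), by 77 in CD8 against 69.3% (7.70 points, -1.46 to 14.9) and by 80 in DN T cells against 70.7% (9.33 points, 0.44 to 16.0). All of ranks 1 to 10 used TRBJ2 in CD4 and DN T cells, and 9 of 10 did in CD8. The exception was CD8 rank 1, and weighted by reads the CD8 difference was -9.03 points. Against the next 900 the differences were 10.9, 1.44 and 3.11 points in the CD4, CD8 and DN libraries.

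Single J genes added little to this. TRBJ2-4 had 14 members in CD4 against 7.95% (0.6 to 14.2 points higher) and TRBJ2-1 had 21 in CD8 against 14.04% (0.1 to 15.9 points higher). TRBJ2-7 was the most used J gene in DN T cells, with 23 members against 23.5%, and TRBJ2-5 had 17 members in CD4 against 11.9%. TRBJ1-1, the most used TRBJ1 gene in lower ranks, had 6, 5 and 5 members in the CD4, CD8 and DN libraries against 9.99%, 8.63% and 8.8%, with each interval including 0.

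**Figure D3:**
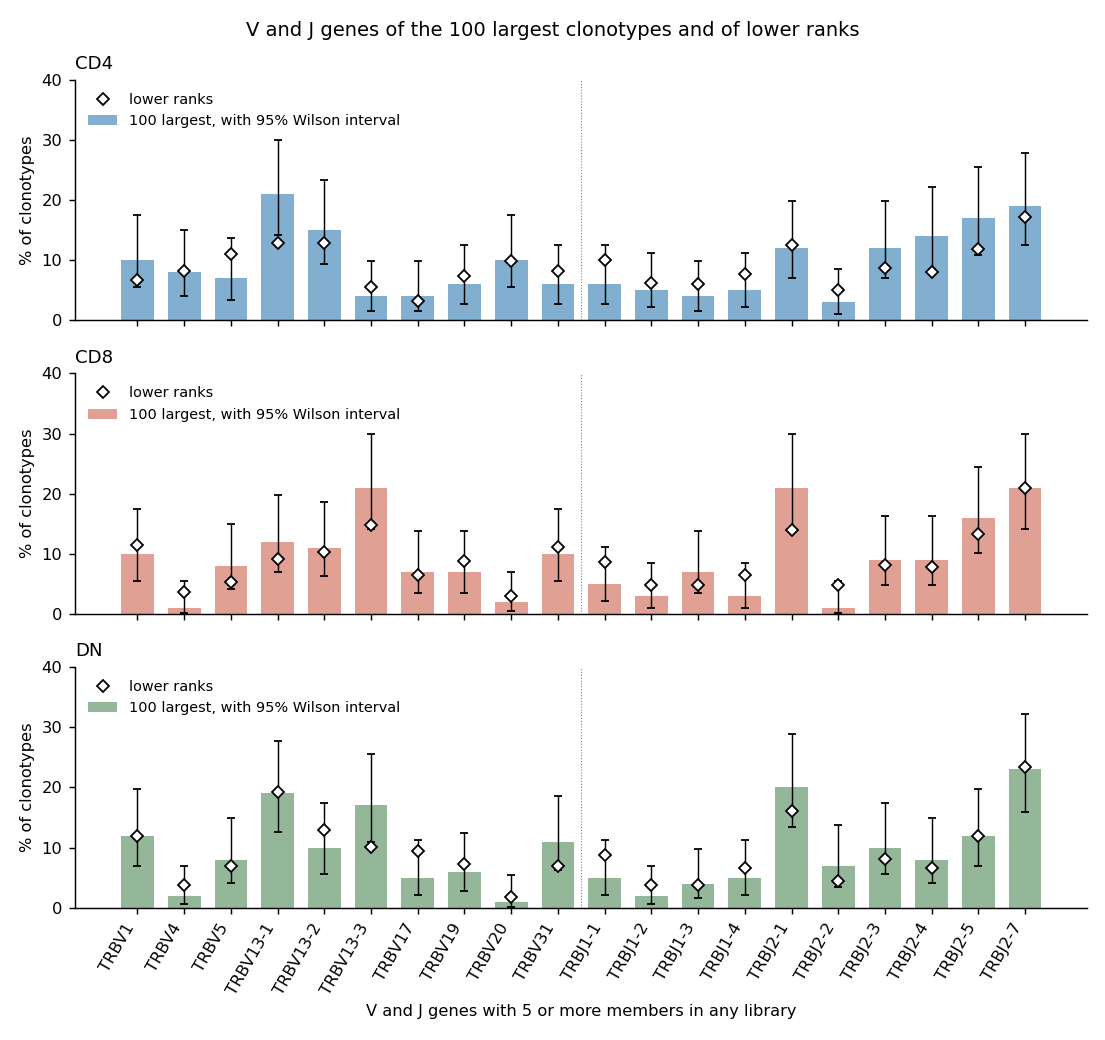
Percentage of clonotypes using each V or J gene with 5 or more members in any library, with bars for the 100 largest (error bars, 95% Wilson interval) and diamonds for clonotypes ranked below 100, 1 panel per library. Most diamonds lie within the error bars; 4 lie outside, for TRBV13-1 (21% against 12.8%) and TRBJ2-4 (14% against 7.95%) in CD4, TRBJ2-1 (21% against 14.04%) in CD8 and TRBV13-3 (17% against 10.1%) in DN.

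The D gene calls of members leaned from TRBD1 to TRBD2, with intervals that left out 0 in CD4 only. TRBD1, which lies upstream of both J clusters, was called in 33, 33 and 28 members of CD4, CD8 and DN T cells against 44.7% (-20.2 to -2.03 points), 41.7% (-17.2 to 0.97) and 37.0% (-16.9 to 0.51) of lower ranks. TRBD2, which lies between the J clusters, was called in 40, 38 and 47 members against 28.8% (2.15 to 21.03 points higher), 32.0% and 39.7%. Among members with a TRBJ2 gene, 49.4% of CD4 carried TRBD2 against 42.2% of lower ranks, an interval of -3.77 to 18.1 points. Among members with a TRBJ1 gene, TRBD1 was called in 10 of 23 in CD4 against 61.2% of lower ranks (-17.8 points, -35.6 to 1.955), in 11 of 23 in CD8 against 59.8% and in 13 of 20 in DN T cells against 60.1%. Within a J cluster each of these intervals included 0.

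No D gene was called in 27 CD4, 29 CD8 and 25 DN members, against 26.5%, 26.2% and 23.3% of lower ranks, and all 3 intervals included 0. In CD8 the difference was 13.8 points for the 50 largest. Of the 10 largest, 0 in CD4, 1 in CD8 and 4 in the DN library lacked a call. TRBD2 cannot be joined to TRBJ1 by ordinary deletion. The combination was called in 2 CD4, 2 CD8 and 0 DN members, against 1.99%, 1.56% and 1.87% of lower ranks, and 0 of 100 has an upper Wilson bound of 3.70%. CD8 rank 1 was 1 of them, with a junction of 6 bases that holds few letters to place a D gene.

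The letters GACTGG, part of the TRBD2 sequence, were searched on the coding strand of the CDR3. They were present in 21 CD4 members against 13.9% of lower ranks (0.30 to 16.1 points higher), in 18 CD8 members against 16.7% and in 24 DN members against 22.4%. The letters GACAGG, part of TRBD1, were present in 8 CD4 members against 16.5% (-12.4 to -1.52 points), 11 in CD8 against 16.8% and 13 in DN T cells against 14.2%. The search needs no D call and gave the same signs as the calls in every library. It reads the same CDR3 bases as the calls, so this is no independent support. In CD8 and DN T cells the intervals for both sets of letters included 0.

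**Figure D4:**
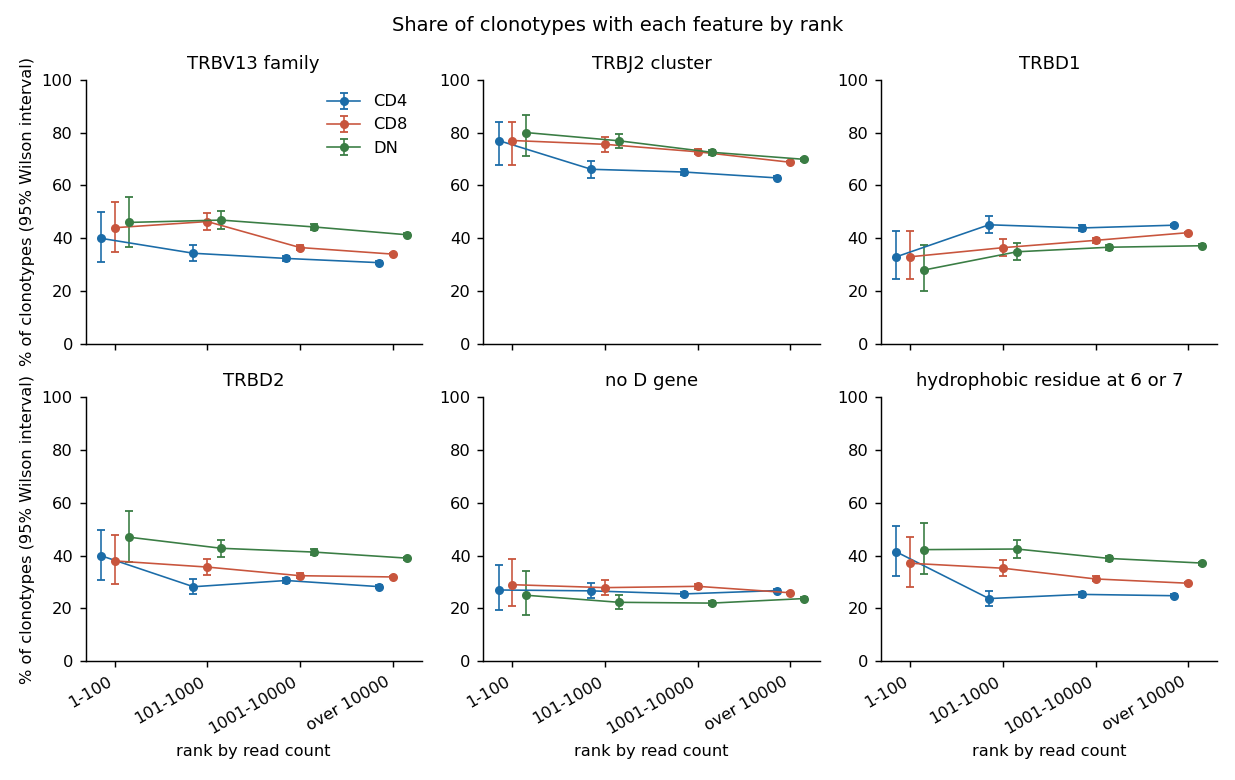
Percentage of clonotypes with each of 6 features in 4 bands of rank by read count (horizontal axis), 1 line per library, error bars 95% Wilson intervals. For TRBJ2 the CD4 line steps up from 66.1% in the next 900 to 77% in the 100 largest, whereas the CD8 and DN lines climb gradually; a step of this kind is seen in CD4 for a hydrophobic residue at position 6 or 7, and not in CD8 or DN.

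CDR3 length differed little. Members averaged 14.21 ± 1.63 residues (SD over 100 clonotypes) in CD4 against 13.92 in lower ranks (0.29 longer, -0.03 to 0.61), 13.85 ± 1.71 in CD8 against 13.92 (-0.07, -0.40 to 0.27) and 14 ± 1.80 in DN T cells against 14.21 (-0.21, -0.57 to 0.14). The order of CD4 and DN T cells was thus opposite in members and in lower ranks, with all 3 intervals including 0. CDR3s of 11 residues or fewer were carried by 2 members in CD4, 6 in CD8 and 8 in the DN library, against 5.10%, 6.03% and 4.40%.

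The junction was shorter in DN members, at 10 ± 4.32 bases against 10.87 (-0.87, -1.71 to -0.02), and was 10.48 ± 4.36 against 10.19 in CD4 and 9.35 ± 4.498 against 9.99 in CD8. The next 900 clonotypes had 10.44 bases in DN T cells, 9.63 in CD4 and 9.02 in CD8, so the DN difference was smaller against them and the CD8 difference turned. Among the 10 largest DN clonotypes, 3 had at most 4 junction bases. They are printed because nearly every base matched a stretch shared by most clonotypes of its V or J gene. Any junction is in capitals. No germline sequence was used, so such a stretch can hold bases from outside the gene. Junction lengths here are therefore not counts of bases outside the V and J genes.
DN rank 8 and CD8 rank 28, TRBV1 and TRBJ2-7: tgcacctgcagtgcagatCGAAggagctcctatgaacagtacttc
DN rank 9 and CD8 rank 24, TRBV13-1 and TRBJ2-7: tgtgccagcagtgatgatgaacagtacttc
DN rank 10 and CD8 rank 29, TRBV1 and TRBJ2-1: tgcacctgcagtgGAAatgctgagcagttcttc
The first had 735 reads in DN, 113 in CD8 and 28 in CD4 T cells. DN rank 9, with no junction base, had 647, 135 and 20 reads in the same order, and DN rank 10 had 592, 111 and 15. All 3 lacked a D gene call. Over the whole DN list, 20 members had a junction of 6 bases or fewer against 15.9% of lower ranks (-2.53 to 13.0 points).

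**Figure D5:**
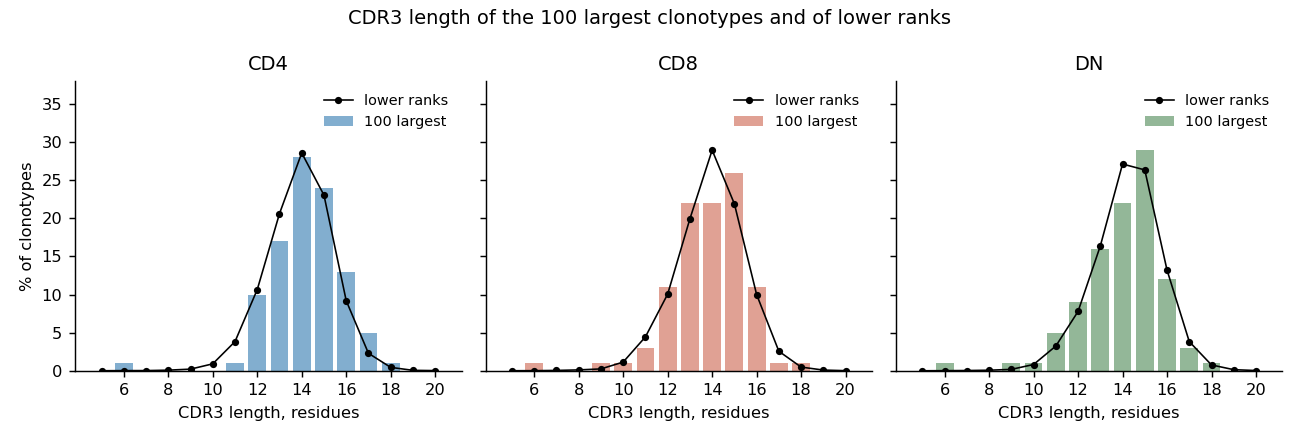
Percentage of clonotypes by CDR3 length in residues, with bars for the 100 largest and points for clonotypes ranked below 100, 1 panel per library. Bars follow the points in all 3 panels; the bar at 6 residues is the TRBV21 clonotype found on all 3 lists.

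Residues in the middle of the CDR3 face the peptide, and hydrophobic residues (aromatic F, W and Y with I, L, M and V) at positions 6 and 7, counted from 1 at the conserved cysteine, were compared in CDR3s of 11 to 18 residues. In CD4 such a residue was present in 41 of 99 members (41.4%) against 24.9% of lower ranks, a difference of 16.5 points (7.29 to 26.4). In CD8 it was present in 36 of 97 (37.1%) against 29.8% (7.31 points, -1.65 to 17.2), and in DN T cells in 41 of 97 (42.3%) against 37.7% (4.55 points, -4.81 to 14.5). Without the 41 clonotypes on both lists, the share was 17 of 59 (28.8%) in CD8 and 22 of 59 (37.3%) in DN members. The next 900 clonotypes had 23.8% in CD4, 35.2% in CD8 and 42.5% in the DN library, so against them the difference was 17.7, 1.88 and -0.23 points. In CD4 it was 16.1 points within V genes and 9.10 points for the 200 largest.

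In CD8 the share went with the clonotypes that were also DN members. It was 19 of 38 (50%) in those and 17 of 59 (28.8%) in the other CD8 members, a difference of 21.2 points (1.50 to 39.3), and the others were close to the 29.8% of lower CD8 ranks. The same 41 clonotypes used TRBD1 less, with 7 of 41 against 26 of 59 (-27.0 points, -42.3 to -8.46), and used TRBD2 and TRBJ2-1 more, with 21 of 41 against 17 of 59 and with 14 of 41 against 7 of 59. These were 4 of 37 features compared between the 2 parts of the CD8 list. With each clonotype kept only in the library where its share was largest, which left 59 of the 100 CD8 members in place, the CD8 difference from lower ranks was -2.94 points.

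By position, 11 of 168 intervals left out 0, of which 7 were in CD4. The intervals overlap, because some residues were counted alone and again within their classes. The 11 aromatic residues at position 6 in CD4 members were all tryptophan, and they are part of the hydrophobic share above. The 7 are therefore not separate results. Tryptophan at position 6 was present in 11 of 99 CD4 members against 3.39% (2.93 to 15.4 points higher). It was present in 8 of 97 CD8 members against 4.36% and in 10 of 97 DN members against 7.20%, both intervals including 0. The member shares were thus similar, while lower ranks of CD4 had the lowest share. The 11 CD4 members used 7 V genes, 9 of them had a TRBD2 call, and they stood at ranks 2 to 95. An acidic residue at position 5 was present in 36 of 99 CD4 members (36.4%) against 23.1% (4.42 to 23.1 points higher). In sequences printed here, the V stretch of TRBV13-1 and TRBV13-2 can hold the acidic codon gat there. CD4 members used these genes at 21% against 12.8% and at 15% against 12.9% of lower ranks. The acidic share within V genes was not computed. Leucine at position 7 was present in 9 of 99 CD4 members (9.09%) against 3.90%.

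In DN T cells, a basic residue at position 7 was present in 16 of 97 members (16.5%) against 9.86% (0.55 to 15.3 points higher), and proline at that position in 7 of 97 (7.22%) against 2.86%, while serine or threonine at position 6 was present in 3 of 97 (3.09%) against 8.93%. In CD8, alanine at position 6 was the only such residue, in 14 of 97 members (14.4%) against 7.40% (1.40 to 15.4 points higher). Over the whole middle of the CDR3, with the first 4 and last 5 residues left out and each residue counted as 1, 2 of 30 intervals left out 0. Basic residues made up 6.68% in CD4 members against 9.35% (-4.51 to -0.20 points), and proline 5.77% in DN members against 3.81% (0.23 to 4.34 points higher). These intervals treat residues of the same CDR3 as independent, so they do not give the counting error over clonotypes.

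Members with similar CDR3s, that is, of the same length and at most 1 residue apart, were few. There were 2 among the CD4 members, 0 among the CD8 members and 9 among the DN members, against 2%, 4% and 2% of the next 100 clonotypes of each library in this order. The DN count had a Wilson interval of 4.81% to 16.2%. That interval treats the 9 as independent, although they are linked in 6 pairs, so it cannot be set against the 2% of the next 100. The DN count was 6 when the same V gene was required and 0 among the 50 largest. The similar DN clonotypes thus lay in the lower part of the list or paired with one there.

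The 7 groups of similar members with the same V gene were all pairs, of which 1 lay within the CD4 list and 6 included a DN member. The members of each of the following pairs encode the same CDR3 residues, and the bases that differ are in capitals.
DN rank 23, CD4 rank 30 and CD8 rank 57, TRBV13-2: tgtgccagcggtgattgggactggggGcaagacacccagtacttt
DN rank 87, TRBV13-2: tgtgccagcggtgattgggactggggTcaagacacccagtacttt
DN rank 25 and CD8 rank 68, TRBV13-3: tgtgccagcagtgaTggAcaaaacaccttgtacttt
DN rank 82, TRBV13-3: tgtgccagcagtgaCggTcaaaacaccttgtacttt
CD4 rank 24, TRBV1: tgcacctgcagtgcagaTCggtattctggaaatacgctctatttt
DN rank 31 and CD8 rank 59, TRBV1: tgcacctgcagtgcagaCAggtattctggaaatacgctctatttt
CD4 rank 28, TRBV13-1: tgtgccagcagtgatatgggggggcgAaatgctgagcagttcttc
CD4 rank 77, TRBV13-1: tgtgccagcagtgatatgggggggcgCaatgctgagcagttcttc
DN rank 87 had 184 reads in DN, 14 in CD8 and 0 in CD4 T cells, and DN rank 82 had 190, 16 and 6. In the TRBV1 pair, CD4 rank 24 had 201 CD4, 10 CD8 and 54 DN reads, while its partner had 7, 61 and 330, so the same residues were carried by clonotypes largest in different subsets. CD4 rank 28 had 180, 10 and 116 reads in the CD4, CD8 and DN libraries and CD4 rank 77 had 108, 6 and 74.

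The other 3 same-V pairs differed by 1 residue, all with TRBV13-1 and TRBD2, and each linked a CD4 member with a DN member. The changes from the CD4 to the DN member were E5R with TRBJ2-7, S8A with TRBJ2-5 and W10F with TRBJ2-1, positions counting from 1 at the cysteine. The CD4 member of the W10F pair was also DN rank 79, with 99 CD4, 34 CD8 and 193 DN reads, and its partner at DN rank 27 had 19, 63 and 379.

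Similar CDR3s also crossed V genes. At DN rank 94, a TRBV13-3 clonotype differed from the TRBV13-2 clonotype on all 3 lists by a single base and by the residue change G4S, in a part of the CDR3 encoded by the V gene. The bases that differ are in capitals.
CD4 rank 30, CD8 rank 57 and DN rank 23, TRBV13-2: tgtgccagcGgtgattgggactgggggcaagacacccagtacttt
DN rank 94, TRBV13-3: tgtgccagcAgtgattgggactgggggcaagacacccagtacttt

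Convergence by another route, in which different nucleotide sequences encode the same CDR3 residues with the same V and J genes, was measured in the whole library. It was seen for 9 CD4 members (11% of all in-frame CD4 clonotypes), 17 CD8 members (14.5% of all) and 12 DN members (10.5% of all), so members were close to the share over all clonotypes. The next 900 had 20.9%, 31.4% and 12.3%, so CD4 and CD8 members lay below the clonotypes that followed them. The TRBV13-2 clonotype on all 3 lists had the most codings of any member in CD8, at 8, and in DN T cells, at 7.

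Rows that could be read errors of a member, 1 base away, of equal length, V and J, with at most 1 read in 10, numbered 2 in CD4, 17 in CD8 and 3 in the DN library. They held 0.113%, 0.489% and 0.168% as many reads as the members, and 0 members were themselves such a row. The lower ranks therefore held few such rows. Neighbours with more reads than this were not counted, and what the assembly by the authors had already merged is not known.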

How the data were processed

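TRB libraries of CD4, CD8 and DN T cells (1 per subset) were prepared with the Takara SMARTer Mouse TCRα/β kit, and reads were aligned and assembled into clonotypes with MiXCR by the authors; its version, settings and reference were not given in the sources used here. The deposited tables give each clonotype's read count, not normalized. The deposited clone fraction, the count divided by the table total, was used only as a check. Tables held 133770, 150976 and 194375 reads; at these depths 3 in-frame TRB reads equalled 0.00237%, 0.00207% and 0.00162%. Rows with TRBV and TRBJ genes and a CDR3 without frame shift or stop were ranked by count. All other in-frame rows were the comparison.

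Shares were given with Wilson and differences with Newcombe 95% intervals; a difference of mean lengths used 1.96 standard errors. No test was possible with 1 library per subset. V and J parts were the stretches carried at each base by over 50% of the clonotypes of a gene still matching. The 40 gene names matched RefSeq (GRCm38.p6), used for names and gene order only. Named were the 3 largest members of each library, clonotypes in the top 10 of more than 1, similar CDR3s with the same V gene, genes with 10 or more members in a library and those with the largest difference; other clonotypes and genes were named after their values were seen. Members and lists were chosen with earlier results of these data known. Intervals for a difference of shares were checked on independent simulated draws at set shares, where 94% to 96% covered the true difference. The draws left out ranking by reads, related clonotypes, mean lengths and genes with 1 member, so they do not show the cover in these data. Python 3.11.15, NumPy 2.4.6, pandas 2.3.3 and matplotlib 3.10.9 were used.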

Additional observations from a re-analysis of the deposited data

Results flagged for a closer look

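Out-of-frame TRB clonotypes, which the ranking left out, included some as large as the members. In CD4, 4 had at least the 85 reads of rank 100, the largest with 357 reads; in CD8, 4 had at least 42 reads, the largest with 167; and in DN T cells, 4 had at least 167 reads, the largest with 323. They were flagged because they are signal in rows that none of the comparisons above used. The largest in CD4 and in DN T cells were both called TRBV4 with TRBJ2-1 and were 16 bases long.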

How the results depend on the processing

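Of 258 alternative values for 27 results, 212 stayed within the 95% interval of the value reported. Many of these intervals were wide, so a value inside one can still have the other sign. Among 219 alternative values for differences, 15 had the sign turned. Larger or smaller lists changed the reads held by construction: the 50 largest held 10.2%, 7.37% and 13.6% of in-frame TRB reads in the CD4, CD8 and DN libraries, and the 200 largest 19.8%, 11.4% and 25.8%. Merging clonotypes with the same CDR3 residues, V and J gave 14.8%, 9.34% and 19.6%. Keeping each clonotype only where its share was largest gave 7.73% in CD8. The excess of members over lower ranks in TRBV13 use in CD8 was -2.33 points against the next 900 clonotypes, the 1 value that turned a difference whose interval had left out 0. In CD8, clonotypes without a D gene exceeded lower ranks by 13.8 points in the 50 largest and by -5.38 points weighted by reads, TRBJ2 by -9.03 points weighted by reads, and hydrophobic residues at position 6 or 7 by -1.96 points weighted by reads and -2.94 points with each clonotype kept in 1 library.

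The excess of members found in another library moved most. With the next 900 as comparison it was 48.3 points for CD4 members in CD8, 42.2 for CD4 in DN, 28.2 for CD8 in CD4, 17.7 for CD8 in DN, 25 for DN in CD4 and 2.44 for DN in CD8. Asking for at least 2 reads in the other library gave 53.7, 38.6, 58.3, 57.8, 92.6 and 89.3 points in the same order. The 200 largest gave 60.1 for CD4 in CD8 and 40.5 for CD4 in DN, and the 50 largest 90.7 for DN in CD4. Lower ranks with at least 2 reads gave 82.0 for DN in CD4 and 67.5 for DN in CD8, and weighting by reads gave 59.5 and 39.7. Keeping each clonotype in 1 library gave 44.2 for CD8 in CD4, 45.7 for CD8 in DN, 90.8 for DN in CD4 and 86.2 for DN in CD8. For DN in CD8, merging by residues gave 74.7 and matching on residues and V gene 72.5.

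Members with a similar CDR3 were 0% of the 50 largest in both CD4 and DN, 9% of the 200 largest in CD8, 0% in CD4 after merging by residues and 4% in CD8 with each clonotype kept in 1 library. One alternative, leaving out CDR3s that do not start with cysteine, was chosen after seeing the data and moved none of the 27 results outside its interval. In no alternative was the cause of a change tested. No paired analysis was possible because each subset had 1 library. Depth limits every statement on a member absent from another library.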
